A study of Mus musculus with 17 samples.

Results

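The 83 cytosolic ribosomal protein genes of the mouse were followed through 17 RNA-seq libraries of embryonic stem (ES) cells. Members were the protein-coding GENCODE M21 genes whose symbol is Rpl or Rps with a number and at most a short paralog suffix, plus Rplp0, Rplp1, Rplp2 and Rpsa. These were 83 of the 53693 genes with a transcript in the deposited tables, and 282 annotated ribosomal protein pseudogenes were left out. They divide into 43 large subunit genes, 31 small subunit genes, 3 genes of the stalk and 6 minor paralogs (Rpl3l, Rpl7l1, Rpl10l, Rpl22l1, Rpl39l and Rps27l). They lie on 19 chromosomes, with 14 on 1 chromosome and 4 on the X. The cells came from 5 lines named iFoxA1, iFoxC1, iFoxG1, iFoxL2 and iFoxP3, all made from MC1 ES cells of 129S6/SvEvTac genotype. Each line carries at Rosa26 a puromycin resistance gene and the coding sequence of 1 forkhead factor, tagged at its C terminus with His6-FLAG and silenced by doxycycline (Dox). The 24 h cells had been without Dox in serum-containing differentiation medium for that time, and no LIF is named for it. The 0 h cells were kept in ES medium with serum, LIF, puromycin and Dox. At 24 h iFoxA1 had 3 libraries and each other line 2, and at 0 h iFoxA1 had 2 libraries and each other line 1. The question put to these genes was how their RNA stood after induction of a forkhead factor and the change of medium, which every line underwent together, as none of the lines lacks a transgene.

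Ribosomal proteins assemble with ribosomal RNA into a large and a small subunit, and each protein is normally needed in a single copy per subunit, the stalk proteins Rplp1 and Rplp2 being the exception. Their mRNAs are among the most abundant of a growing cell and begin with a run of pyrimidines at the cap, the 5′ terminal oligopyrimidine (TOP) tract, through which mTORC1 and Larp1 control their translation. Most of the genes have many processed pseudogenes, which arose from reverse-transcribed mRNA and so match the spliced mRNA along its length. A few have a second functional gene, of which Rpl10l and Rpl39l are best known from the testis.

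The coding sequences behind the results below show how close some of these genes are to one another. The coding sequence of Rps27 (252 bases without the stop codon, on chromosome 3) was identical at every base to a stretch of Rps27rt, a protein-coding gene on chromosome 9 that the symbol rule does not include. It differed from that of Rps27l, also on chromosome 9, at 60 bases, with 76.2% identity. Rpl39 on the X and Rpl39l on chromosome 16 differed at 23 of 153 bases. Capitals mark the bases that differ within each pair, in the mm10 coding sequences of GENCODE M21; coordinates are those of the genes.
Rps27, chr3:90212522-90213651, minus strand: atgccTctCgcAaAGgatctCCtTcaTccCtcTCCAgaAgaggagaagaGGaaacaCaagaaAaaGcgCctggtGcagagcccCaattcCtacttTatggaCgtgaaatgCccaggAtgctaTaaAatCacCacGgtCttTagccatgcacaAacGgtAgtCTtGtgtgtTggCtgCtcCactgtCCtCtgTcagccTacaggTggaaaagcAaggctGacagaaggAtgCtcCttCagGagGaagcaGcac
Rps27l, chr9:66946086-66949516, plus strand: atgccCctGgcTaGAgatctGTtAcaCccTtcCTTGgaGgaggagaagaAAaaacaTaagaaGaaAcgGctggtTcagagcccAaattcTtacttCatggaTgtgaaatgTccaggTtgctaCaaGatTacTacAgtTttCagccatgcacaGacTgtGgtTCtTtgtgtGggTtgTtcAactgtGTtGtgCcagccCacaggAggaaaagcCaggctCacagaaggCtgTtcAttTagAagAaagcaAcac
Rpl39, chrX:37082520-37085402, minus strand: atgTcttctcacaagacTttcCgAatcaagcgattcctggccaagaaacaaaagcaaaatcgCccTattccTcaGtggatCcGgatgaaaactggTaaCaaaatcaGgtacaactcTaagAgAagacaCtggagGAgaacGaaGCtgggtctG
Rpl39l, chr16:10170226-10174911, plus strand: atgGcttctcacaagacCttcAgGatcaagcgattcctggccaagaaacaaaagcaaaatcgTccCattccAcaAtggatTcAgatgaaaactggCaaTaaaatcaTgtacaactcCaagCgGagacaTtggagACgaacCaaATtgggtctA

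RefSeq promoter windows of GRCm38.p6 (250 bases before to 50 after a start) were at hand for 63 of the 83 genes. A run of at least 5 pyrimidines beginning with C after a purine, with its first base within 5 bases of the annotated start on the gene's strand, was found in 17 of these 63 genes (27.0%), against 14.5% of all 27025 genes with a window. The motif CCGGAAG, searched on both strands in the whole window, was found in 26 of the 63 (41.3%), against 9.93% of all genes. TATAAA, on the gene's strand between 45 and 16 bases before the start, was found in 1 of the 63 (1.59%), against 2.57% of all genes. Start windows of 50 bases are given for 4 members, with the pyrimidine run in capitals, as the RefSeq table places the start after base 30. A run within that limit is seen in Rpl13a, Rps27 and Rpl39. In the minor paralog Rpl39l, a run of 7 pyrimidines begins 7 bases before the start and ends at the base just before it. The run thus begins outside the limit of 5 bases and was not counted or put in capitals.
Rpl13a start window, chr7:45128726-45128775, minus strand: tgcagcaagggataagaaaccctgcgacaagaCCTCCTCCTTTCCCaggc
Rps27 start window, chr3:90213629-90213678, minus strand: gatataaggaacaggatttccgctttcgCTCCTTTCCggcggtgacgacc
Rpl39 start window, chrX:37085203-37085252, minus strand: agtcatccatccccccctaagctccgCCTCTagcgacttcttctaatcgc
Rpl39l start window, chr16:10170198-10170247, plus strand: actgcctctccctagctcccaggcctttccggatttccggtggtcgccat

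Of the 17 libraries, 5 stood apart. They are the third 24 h library of iFoxA1 and the second 24 h library of each other line, with totals of 32.9 to 37.2 M estimated counts, against 17.7 to 22.2 M in the other 12. They are called the deeper libraries here. All are from 24 h, so a comparison of 24 h with 0 h also holds the difference between them and the rest. The labels do not name them as a batch. Within them, the induced factor was lower in iFoxA1 and iFoxL2 than in the other library or libraries of the same line. Foxa1 was at 76.7 CPM (counts scaled by library size to a common total) in the deeper iFoxA1 library, against 236 and 252 CPM in the 2 others. Foxl2 was at 11.5 CPM in the deeper iFoxL2 library, against 149 CPM in the other. These 2 libraries also had the highest summed level of 10 ES cell markers at 24 h, 5716 and 5582 CPM, against 2706 to 4255 CPM in the 9 others and 4877 to 5843 CPM at 0 h. Each line's factor was at least 10.1-fold higher at 24 h than at 0 h in every library. All 10 ES markers reached 1 CPM at both times, and of 10 fibroblast feeder markers 3 stayed under 1 CPM in all 24 h libraries and 5 in all 0 h libraries. Fibroblast feeder markers summed to 5.24 to 35.7 CPM at 24 h and 7.06 to 37.2 CPM at 0 h, and smooth muscle markers to 7.63 to 131 CPM at 24 h and 3.08 to 37.98 CPM at 0 h. The part of the other cell types in the results was not tested. Whether the replicates came from separate cultures is not stated, so p-values reflect only how far these libraries spread, which may be technical. In these bulk samples, fewer cells of a type and less RNA per cell cannot be told apart.

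Ribosomal protein mRNAs were abundant in every library, and 49 of the 83 genes ranked among the 100 genes with the highest mean TPM (a level corrected for transcript length and scaled to a common total). The median of the members' mean TPM was 2010. Rplp1, a stalk protein, led with a mean of 5768 TPM over the 17 libraries, followed by Rpl41 (4448 TPM), which encodes a very short basic peptide of the ribosome, Rps15a (4246 TPM), Rps29 (4210 TPM) and Rpl13a (4043 TPM). Their ranges over the libraries overlapped, and their order was not tested. Within every library Rplp1 was above Rpl41 and Rps15a. In the deeper iFoxA1 library it was at 4784 TPM, below Rps29 (5378 TPM) and Rpl13a (5033 TPM). In the deeper iFoxC1 library it was at 5129 TPM, below Rpl13a (5198 TPM). Rplp1 ran from 4784 to 7090 TPM and Rps15a from 2476 to 7049 TPM. At the other end stood Rpl3l, the paralog of Rpl3 known from heart and skeletal muscle. Its mean over all libraries was 1.43 TPM, the only member mean under 100 TPM. Rpl10l (133 TPM), Rpl12 (204 TPM), Rpl7l1 (224 TPM) and Rpl39l (240 TPM) came next from the bottom. TPM also depends on the rest of the library: Mir6236, which is no member, took 31756 to 57882 TPM in the deeper libraries and 742 to 2544 TPM in the others. Rpl12 is not a minor paralog, and its level ran from 102 to 483 TPM. Its near-identical copies, described below, held 92.6% of the joint counts in the other 24 h libraries, 93.5% at 0 h and 71.8% in the deeper libraries. Means over all libraries also hide low levels outside the deeper libraries. There Rpl5 was at 74.9 to 93.7 TPM and Rps27 at 21.9 to 118 TPM, against 781 to 1037 and 2585 to 3834 TPM in the deeper libraries.

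The members together held nearly the same share of a library's counts in all 5 lines at 24 h outside the deeper libraries, but not at 0 h. The deeper 24 h libraries had shares of 8.17% (iFoxA1), 7.80% (iFoxC1), 7.77% (iFoxG1), 9.97% (iFoxL2) and 8.37% (iFoxP3). The other 24 h libraries had 6.48% and 6.71% (iFoxA1), 6.67% (iFoxC1), 6.75% (iFoxG1), 6.67% (iFoxL2) and 6.43% (iFoxP3). The 0 h libraries had 6.63% and 6.57% (iFoxA1), 8.08% (iFoxC1), 8.19% (iFoxG1), 8.06% (iFoxL2) and 9.58% (iFoxP3). The deeper libraries lay above the other 24 h libraries without overlap. The 24 h libraries outside the deeper set lay below the 0 h libraries of the 4 lines other than iFoxA1 and around those of iFoxA1. Each share has a 95% Wilson interval of at most 0.0123 percentage points on either side, which covers counting error only.

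Without the deeper libraries, the share averaged 6.62% ± 0.131 at 24 h and 7.85% ± 1.12 at 0 h (SD, n = 6 each), with an exact two-sided permutation p = 0.0346 (0.0462 after Benjamini-Hochberg adjustment over 8 such tests, of which 2 leave out iFoxA1, a choice made with its values known, and are not given). With all libraries it averaged 7.43% ± 1.102 at 24 h (SD, n = 11) and 7.85% ± 1.12 at 0 h (SD, n = 6), exact permutation p = 0.4905. The deeper libraries averaged 8.41% ± 0.905 (n = 5) and the other 24 h libraries 6.62% ± 0.131 (SD, n = 6), exact permutation p = 0.00433, which is the smallest p that 5 against 6 allow. These libraries come from 5 lines and are not replicates of 1 line, and the permutations do not keep the lines together.

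**Figure D1:**
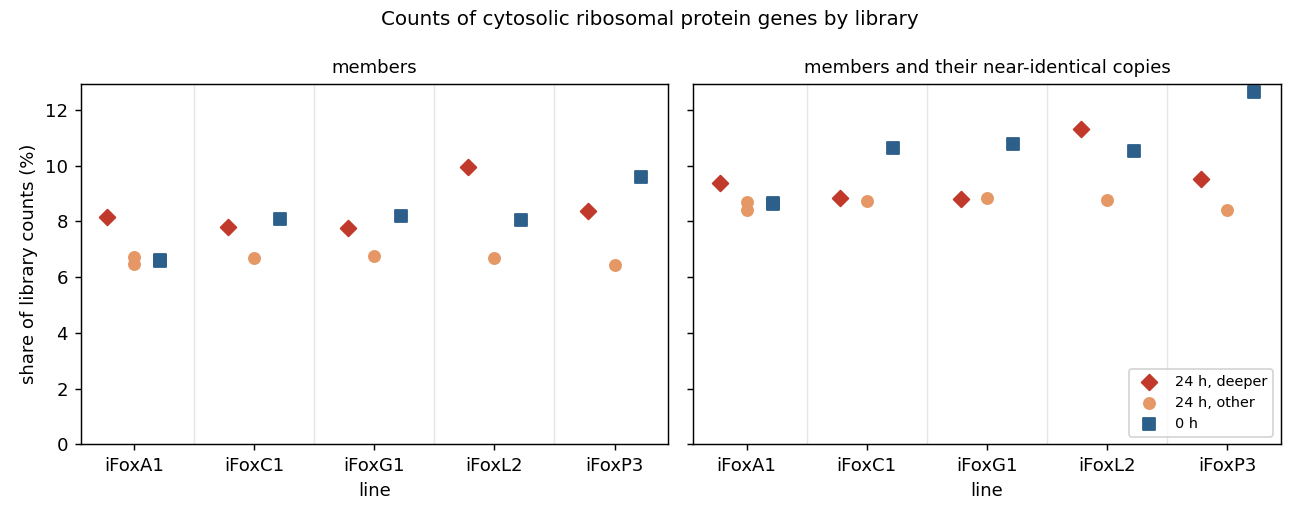
Share of each library's estimated counts (%, y axis) held by the 83 genes (left panel) and by the genes with their near-identical copies (right panel), by line. Diamonds are the deeper 24 h libraries, circles the other 24 h libraries and squares 0 h; the circles sit between 6.43% and 6.75% in the left panel in all 5 lines, whereas the squares reach 9.58% in iFoxP3.

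Over all 17 libraries, 25 of the 83 genes fell on average over the 5 lines and none rose past the threshold (adjusted p of 0.05, edgeR quasi-likelihood test, Benjamini-Hochberg over all 19819 genes tested). All 83 genes passed the filter on low counts. Of all genes tested, 16.1% fell and 21.7% rose. At an unadjusted p under 0.05, 2 members rose and 28 fell, and DESeq2 called 2 that rose. The median log2 change of the members was -0.18, against 0.04 over all genes. The genes that fell numbered 11 of 43 for the large subunit, 9 of 31 for the small subunit, 2 of 3 for the stalk and 3 of 6 minor paralogs. The count depended on single libraries: it was 40 without the second 24 h library of iFoxL2, 16 without the 0 h library of iFoxG1 and 11 without that of iFoxP3. Among the 25 were Rpl32, Rpl34, Rpl36a, Rpl37, Rpl37a, Rps3, Rps26 and Rps27a.

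The 10 members that fell most were Rpl39l, Rpl10l, Rps7, Rps15a, Rpl38, Rps27l, Rps14, Rpl26, Rpl39 and Rps21. Rps15a, a protein of the small subunit, was at 648 to 915 CPM at 24 h with a median of 744, against 764 to 1667 CPM at 0 h with a median of 1271. Only the pair of iFoxA1 libraries at 0 h (771 and 764 CPM) lay within the 24 h range. Its log2 change was -0.69 ± 0.09 (SE), adjusted p = 0.000302 by edgeR. Rpl38, a large subunit protein known for its part in the translation of Hox mRNAs in the mouse embryo, was at 379 to 507 CPM at 24 h with a median of 419, against 455 to 816 CPM at 0 h with a median of 606. Its log2 change was -0.55 ± 0.08 (SE). Rps14, a small subunit protein, had 879 to 1350 CPM at 24 h (median 941) and 1047 to 1829 CPM at 0 h (median 1335), a log2 change of -0.485 ± 0.08 (SE). The highest 24 h value of both was that of the deeper iFoxL2 library, the one with the low Foxl2 level.

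Rps7, which in human and mouse cells is one of the ribosomal proteins that bind Mdm2, was at 276 to 616 CPM at 24 h (median 405) and 550 to 799 CPM at 0 h (median 659). Its log2 change was -0.80 ± 0.14 (SE), and with the copies added and without the deeper libraries it was -0.58 ± 0.02. Rpl26 had 851 to 1365 CPM at 24 h and 923 to 1847 CPM at 0 h, a log2 change of -0.47 ± 0.09. Rpl39, at the exit of the nascent peptide tunnel, had 364 to 562 CPM at 24 h and 413 to 766 CPM at 0 h, also -0.47 ± 0.09. Rps21 had 459 to 689 CPM at 24 h and 583 to 1097 CPM at 0 h, a log2 change of -0.44 ± 0.11. In these 3 genes the ranges of the times overlapped.

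With the deeper libraries left out, 78 of the 83 genes fell and 1 rose, on a background of 31.4% of 19392 genes that fell and 31.8% that rose. The median log2 change was -0.41 for the members and 0.01 for all genes. By the genes' own counts, the members also came closer to one another. The SD of the log2 change over the 77 genes other than the minor paralogs was 0.15 without the deeper libraries and 0.76 with all of them. With near-identical copies added, as described below, the SDs were 0.14 and 0.18 in the same order, so most of that gap was not seen. This fit has 2 residual degrees of freedom, both from the iFoxA1 pairs at 24 h and 0 h, and it assumes that the lone libraries of the other lines vary like these. The pairs were close, with a chi-square per degree of freedom over genes of 3.32 at 24 h and 2.80 at 0 h, against 78.8 to 206 between a deeper and another library of the same line. A value of 1 is expected from sampling of reads alone. These are estimated counts, and the assignment of reads among similar transcripts can also raise the value. It therefore cannot show whether the pairs are more than technical repeats. They were counted as 2 libraries each. The SEs of this fit, about 0.02 for most members, therefore rest on 4 libraries of 1 line.

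Adding the counts of near-identical copies to each gene, again without the deeper libraries, gave 79 genes that fell and 1 that rose (background 31.8% lower and 32.2% higher of 19057 genes), with a median of -0.42. All 43 large subunit genes fell, with a median of -0.43, and 29 of 31 small subunit genes, with a median of -0.41. Among the genes that did not fall were Rps2 of the small subunit (-0.0047 ± 0.02), Rplp2 of the stalk, which rose (0.07 ± 0.02), and the barely detected Rpl3l (0.10 ± 0.21).

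**Figure D2:**
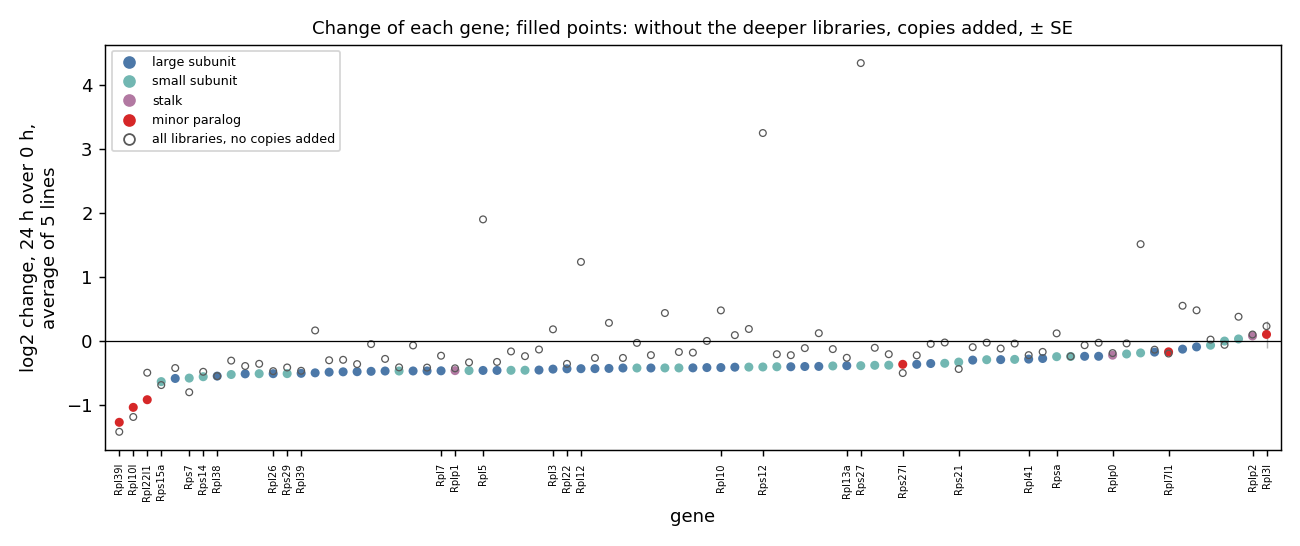
Log2 change, 24 h over 0 h, averaged over the 5 lines (y axis) for each of the 83 genes (x axis, ordered by the filled points, with some of the genes labelled). Filled points with ± SE leave out the deeper libraries and add near-identical copies, and open circles use all libraries without copies; the filled points have a median of -0.42, and the highest open circles are those of Rps27 (4.34), Rps12 (3.25), Rpl5 (1.90), Rps13 (1.51) and Rpl12 (1.23).

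Within single lines and over all libraries, 13 members fell in iFoxP3, where 2.79% of all genes fell and 3.25% rose, and 1 fell in iFoxG1 (Rps15a, log2 change -0.83), where 2.29% of genes fell and 3.34% rose. None passed the threshold in iFoxA1 (background 4.14% lower, 6.62% higher), iFoxC1 (3.47% lower, 6.23% higher) or iFoxL2 (1.94% lower, 2.31% higher), and none rose in any line. At an unadjusted p under 0.05, the members that fell numbered 2 (iFoxA1), 8 (iFoxC1), 15 (iFoxG1), 6 (iFoxL2) and 34 (iFoxP3), and 0 rose in each. DESeq2 called 2, 7, 12, 3 and 28 members lower in the lines in that order. The lines' median log2 changes were 0.13 (iFoxA1), -0.18 (iFoxC1), -0.34 (iFoxG1), 0.06 (iFoxL2) and -0.57 (iFoxP3). The 13 genes in iFoxP3 were Rpl10l, Rpl26, Rpl32, Rpl38, Rpl39, Rpl39l, Rpl41, Rplp0, Rplp1, Rps3, Rps14, Rps15a and Rps29. With 1 library left out at a time, the count in iFoxP3 was 0 without either of its 24 h libraries and 27 without either iFoxL2 library of 24 h, and leaving out 1 of the 2 iFoxA1 libraries of 0 h gave 3. It was 4 to 6 without either iFoxC1 or iFoxG1 library of 24 h or without the first or the second iFoxA1 library of 24 h. In iFoxG1, none passed without either of its own 24 h libraries and 10 passed without either of the iFoxL2 libraries of 24 h. Rps15a had a log2 change of -1.105 in iFoxP3 and Rplp1 of -0.88.

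Without the deeper libraries, the median log2 changes were -0.02 (iFoxA1), -0.32 (iFoxC1), -0.44 (iFoxG1), -0.41 (iFoxL2) and -0.84 (iFoxP3), and all of the medians over all genes lay between -0.0035 and 0.012. In iFoxA1, 39 members had a positive sign and 44 a negative one, and in iFoxP3 2 had a positive sign and 81 a negative one. Past the threshold, 14 members fell and 14 rose in iFoxA1, where 23.6% of all genes fell and 23.6% rose, so the members' counts (16.9% each way) were not above the background. In iFoxC1 66 fell and 3 rose (background 22.5% lower, 23.5% higher), in iFoxG1 76 fell and none rose (21.1% lower, 19.96% higher), in iFoxL2 73 fell and 1 rose (21.6% lower, 21.3% higher), and in iFoxP3 79 fell and none rose (22.5% lower, 21.3% higher). These changes set lone libraries against each other in all lines but iFoxA1, whose pairs give the whole spread.

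The change did not pass the threshold for a difference among the 5 lines in any member over all libraries (background 0.984% of genes), with 9 members at an unadjusted p under 0.05 and 11 called by DESeq2's likelihood ratio test. Without the deeper libraries the same edgeR test called 80 members, on a background of 50.9% of genes, with the spread taken from iFoxA1 alone. In the edgeR fit over all libraries, none of the line-specific changes (a line against the mean of the 4 others) passed the threshold in a member. The smallest adjusted p was 0.084. Line-specific changes are not given for the fit without the deeper libraries.

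**Figure D3:**
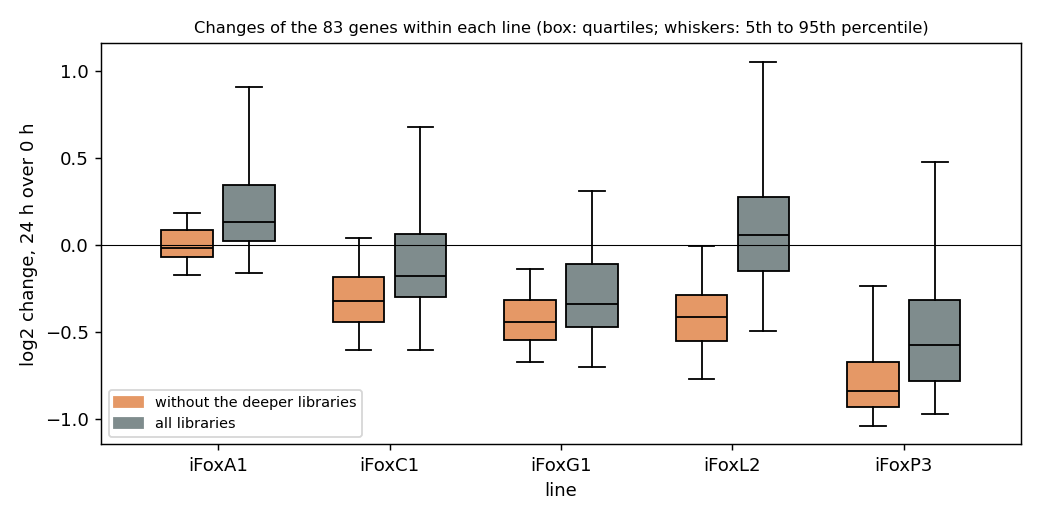
Log2 change, 24 h over 0 h (y axis), of the 83 genes within each line (x axis), without the deeper libraries (left box of each pair) and with all libraries (right box). The left boxes have medians from -0.84 in iFoxP3 to -0.02 in iFoxA1.

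The lines already differed at 0 h. In iFoxA1 against the mean of the 4 other lines at 0 h, 79 of the 83 members had the lower sign and the median log2 difference was -0.48, against 0.05 over all genes. Past the threshold, Rps15a (-0.85 ± 0.15, SE) and Rplp1 (-0.54 ± 0.11) were lower and none was higher (background 0.373% of genes lower and 1.19% higher). At an unadjusted p under 0.05, 28 members were lower and 0 higher. The count depended on the spread used: in the fit without the deeper libraries, which holds the same 0 h libraries, 73 members were lower and none higher (background 19.6% lower and 22.8% higher), with the same median of -0.48. Rplp1 was at 1638 and 1637 CPM in iFoxA1, against 2016 CPM in iFoxC1, 2249 CPM in iFoxG1, 2351 CPM in iFoxL2 and 3002 CPM in iFoxP3. The 24 h libraries of the 5 lines outside the deeper set held 1521 to 1673 CPM of it. The iFoxA1 libraries at 0 h lay within that range and the other lines above it. The comparison at 0 h and the changes within lines share the 0 h libraries, so each follows in part from the other.

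Among the members, Rps27, Rps12, Rpl5, Rps13 and Rpl12 differed most between the deeper and the other 24 h libraries. Each of them has near-identical copies elsewhere in the genome. So do most members (78), so the presence of a copy alone does not set these genes apart. The copies' part of the joint counts was larger in them than in any other member. In the other 24 h libraries it was 96.3% for Rps27 and for Rps12, 95.8% for Rpl5, 92.6% for Rpl12 and 88.9% for Rps13. The next highest was 65.4% for Rps23. Whether this part bears on the difference was not tested. Whether genes with copies differed more than genes without them was not tested. In a fit with terms for line and for the deeper set, 48 members were higher in the deeper libraries and 3 were lower (Rps7, Rps21 and Rps27l), where 9.46% and 11.4% of 18052 genes were. The lower count was 0 without any one of the iFoxC1 or iFoxG1 libraries and 1 without any one of those of iFoxA1 or iFoxP3. Rps7 averaged 326 CPM in the deeper and 462 CPM in the other 24 h libraries, and its copy Gm6472 914 and 557 CPM. The ratio of the deeper to the other mean was 0.706 for Rps7 alone and 1.22 with its copies added. Rps27, a zinc-binding protein of the small subunit, was at 665 (iFoxA1), 565 (iFoxC1), 583 (iFoxG1), 904 (iFoxL2) and 654 CPM (iFoxP3) in the deeper libraries, against 11.2 to 19.7 CPM (median 15.9) in the other 24 h libraries and 7.25 to 25.8 CPM (median 16.0) at 0 h. Its copy Rps27rt, identical over the coding sequence, had 0 CPM in the 5 deeper libraries, against 360 to 455 CPM in the others at 24 h and 366 to 802 CPM at 0 h. A count of 0 allows up to 0.0911 CPM in the smallest of the deeper libraries. The log2 difference of Rps27 was 5.41 before and 0.61 after the copies were added.

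Rps12 of the small subunit was at 1332 to 1887 CPM in the deeper libraries, against 59.9 to 79.3 CPM in the other 24 h libraries and 64.4 to 94.8 CPM at 0 h. Rps12-ps3, which GENCODE lists as protein coding and which matches Rps12 at every base over 86.5% of its coding sequence, had 0 CPM in the deeper libraries, against 1573 to 1959 CPM in the others at 24 h and 1670 to 3274 CPM at 0 h. Rpl5, the 5S RNA-binding protein, was at 559 to 825 CPM in the deeper libraries, against 60.2 to 76.7 CPM in the other 24 h libraries. Its pseudogene Gm15500 was read in both, at 1002 to 1560 CPM in the deeper and 1494 to 1685 CPM in the other libraries. Rpl12 had 393 to 579 CPM in the deeper libraries, against 81.9 to 94.4 CPM in the others, and its copy Gm10275 had 920 to 1547 and 1087 to 1196 CPM in the same order of groups. In all of these the groups did not overlap for the gene itself.

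A search of all transcripts for matches of at least 90% identity over at least 50% of a member's coding sequence found 1003 copies of 78 members, of which 983 are annotated as pseudogenes and 19 as protein coding. These copies held 1.03 to 1.35% of the counts in the deeper libraries, 1.93 to 2.09% in the other 24 h libraries and 2.03 to 3.05% at 0 h. In 4 members the copies held at least 50% of the gene's and its copies' counts in the deeper libraries, against 14 members in the other 24 h libraries and 14 at 0 h. Taken alone, 11 genes were more than 2-fold higher in the mean of the deeper libraries, with ratios from 0.694 to 43.2 over the 83 genes. With copies added, none was, and the ratios ran from 0.694 to 1.71. With copies added, 27 members were higher and 2 lower in the deeper libraries (background 8.97% and 10.8% of 17808 genes). Reads that match a gene and its copy equally cannot be told apart from these tables, so the levels of these genes, and their changes over all libraries, are uncertain. What differed in the making or quantification of the deeper libraries was not tested.

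With copies added, the share of counts was 9.37% (iFoxA1), 8.84% (iFoxC1), 8.79% (iFoxG1), 11.3% (iFoxL2) and 9.53% (iFoxP3) in the deeper libraries, against 8.41 to 8.84% in the other 24 h libraries, 8.66% and 8.61% in iFoxA1 at 0 h, and 10.5 to 12.6% in the other lines at 0 h. In iFoxC1 and iFoxG1 the deeper library was then within the range of the other 24 h libraries. In iFoxL2, whose deeper library had little Foxl2, it was above the line's own 0 h library (10.5%). Over all libraries, this share averaged 9.06% ± 0.822 at 24 h (n = 11) and 10.3% ± 1.51 at 0 h (n = 6), exact permutation p = 0.0474 (0.0541 adjusted over the 8 tests).

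**Figure D4:**
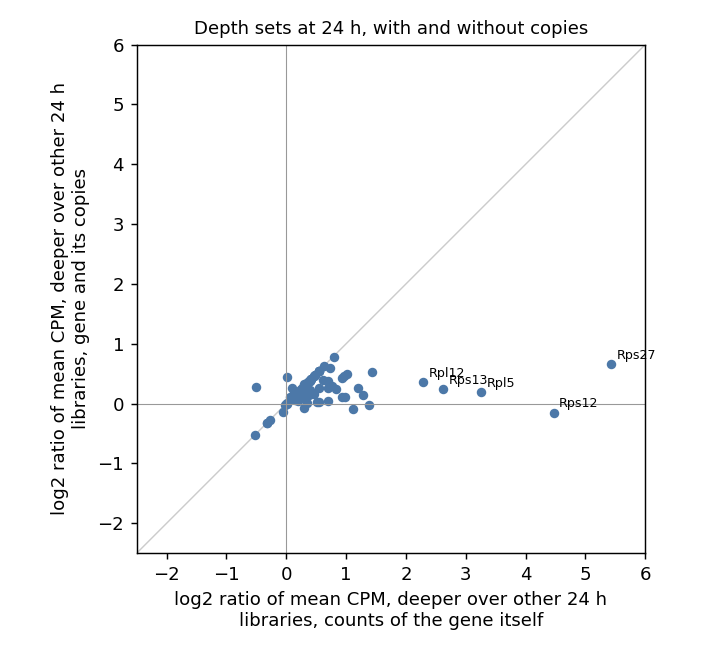
Log2 ratio of mean CPM in the 5 deeper over the 6 other 24 h libraries, for each gene's own counts (x axis) and for the gene with its near-identical copies (y axis); the diagonal marks equal values. Rps27, Rps12, Rpl5, Rps13 and Rpl12 lie farthest to the right, with ratios of 43.2, 22.2, 9.60, 6.16 and 4.90 for their own counts, and of 1.58, 0.901, 1.14, 1.18 and 1.28 with copies.

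Transcript shares within a gene also differed between the deeper and the other libraries, in a larger part of the members than of genes at large. Of the 83 genes, 54 have 2 or more protein-coding transcripts in the tables. The leading transcript's share of the gene's TPM differed by at least 10 percentage points between the deeper and the other 24 h libraries in 45 of the 54, with no overlap between the groups in 46. Of all 8287 genes with 2 or more such transcripts, a mean of at least 1 TPM and a level above 0 in every library, 48.1% had such a difference and 26.2% no overlap. Of the 912 of these with a mean of at least 100 TPM, which is closer to the members' levels, 55.9% and 59.9% did. Another transcript led in the deeper libraries than in the other 24 h libraries in 32 of the 54 members. The same was seen in 20.1% of the 8287 genes and in 25.9% of the 912. Between the other 24 h libraries and 0 h, the leading share differed by at least 10 points in 2 members (Rps27 and the low Rpl3l), in 15.8% of the 8287 genes and in 2.74% of the 912. Rps24, a small subunit gene whose last coding exons are spliced in alternative ways, had Rps24-202 at 10.2 to 21.6% in the deeper libraries, against 65.8 to 77.3% in the other 24 h libraries and 74.6 to 83.1% at 0 h. Rplp2-203 was at 0.0 to 0.2% in the deeper libraries, against 37.8 to 47.1% in the other 24 h libraries and 37.9 to 49.3% at 0 h. A comparison of all 24 h with all 0 h libraries gives 39 members with a 10-point shift (31.9% of the 8287 genes), against 2 without the deeper libraries.

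Among the minor paralogs, Rpl39l and Rpl10l showed the largest falls of all members, with or without the deeper libraries. Rpl39l was at 35.97 (iFoxA1), 113 (iFoxC1), 54.9 (iFoxG1), 26.9 (iFoxL2) and 63.8 CPM (iFoxP3) in the deeper libraries and at 56.5 to 119 CPM (median 66.5) in the other 24 h libraries, against 121 to 216 CPM (median 167) at 0 h. No 24 h library reached the lowest 0 h library. The log2 change was -1.42 ± 0.19 (SE), adjusted p = 0.000414 by edgeR, and -1.27 ± 0.02 without the deeper libraries. No near-identical copy of it was found. Rpl39, its main copy, changed by -0.47, and Rpl39l made up 4.60 to 23.8% of the pair's TPM in the deeper and 10.4 to 20.5% in the other 24 h libraries, against 17.9 to 24.6% at 0 h.

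Rpl10l was at 42.3 to 64.1 CPM in the deeper libraries and at 54.5 to 103 CPM in the other 24 h libraries (medians 53.3 and 76.5), against 101 to 221 CPM at 0 h (median 156). The 24 h range touched the 0 h range at the second iFoxA1 library (103 CPM), while iFoxC1 had 101 CPM at 0 h. Within each line all 24 h values were below the 0 h values. The log2 change was -1.19 ± 0.17 (SE) over all libraries and -1.04 ± 0.03 without the deeper ones. Rpl10l and its main copy Rpl10 are 84.7% identical over the coding sequence. Rpl10 itself was split with Rpl10-ps3, and with copies added it changed by -0.42 without the deeper libraries.

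Rpl22l1, a paralog that in the mouse is held down by Rpl22, was at 74.8 to 111 CPM in the other 24 h libraries, against 111 to 206 CPM at 0 h, a log2 change of -0.91 ± 0.03 in the fit without the deeper libraries. Over all libraries it did not pass the threshold (-0.50 ± 0.26, adjusted p = 0.156 by edgeR). The deeper libraries of iFoxA1 and iFoxL2, those with the low factor levels, had 224.1 and 245.0 CPM, and the deeper libraries of the other lines 96.7 to 118 CPM. For Rpl39l, Rpl10l, Rps27l and Rpl7l1, the same iFoxA1 and iFoxL2 libraries instead held the lowest values of all libraries. These were 35.97 and 26.9 CPM, 42.3 and 49.2 CPM, 168 and 149 CPM, and 193 and 195 CPM in that order of genes. Rps27l, which in human and mouse cells is a p53 target, was at 149 to 217 CPM in the deeper and 215 to 258 CPM in the other 24 h libraries, against 236 to 390 CPM at 0 h. Its log2 change was -0.50 ± 0.13. Rpl7l1, whose human counterpart is linked to assembly of the large subunit, was at 193 to 358 CPM at 24 h and 264 to 401 CPM at 0 h (log2 change -0.20 ± 0.10, adjusted p = 0.128 by edgeR). Rpl3l was at 0.885 to 4.83 CPM at 24 h and 0.920 to 1.90 CPM at 0 h.

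**Figure D5:**
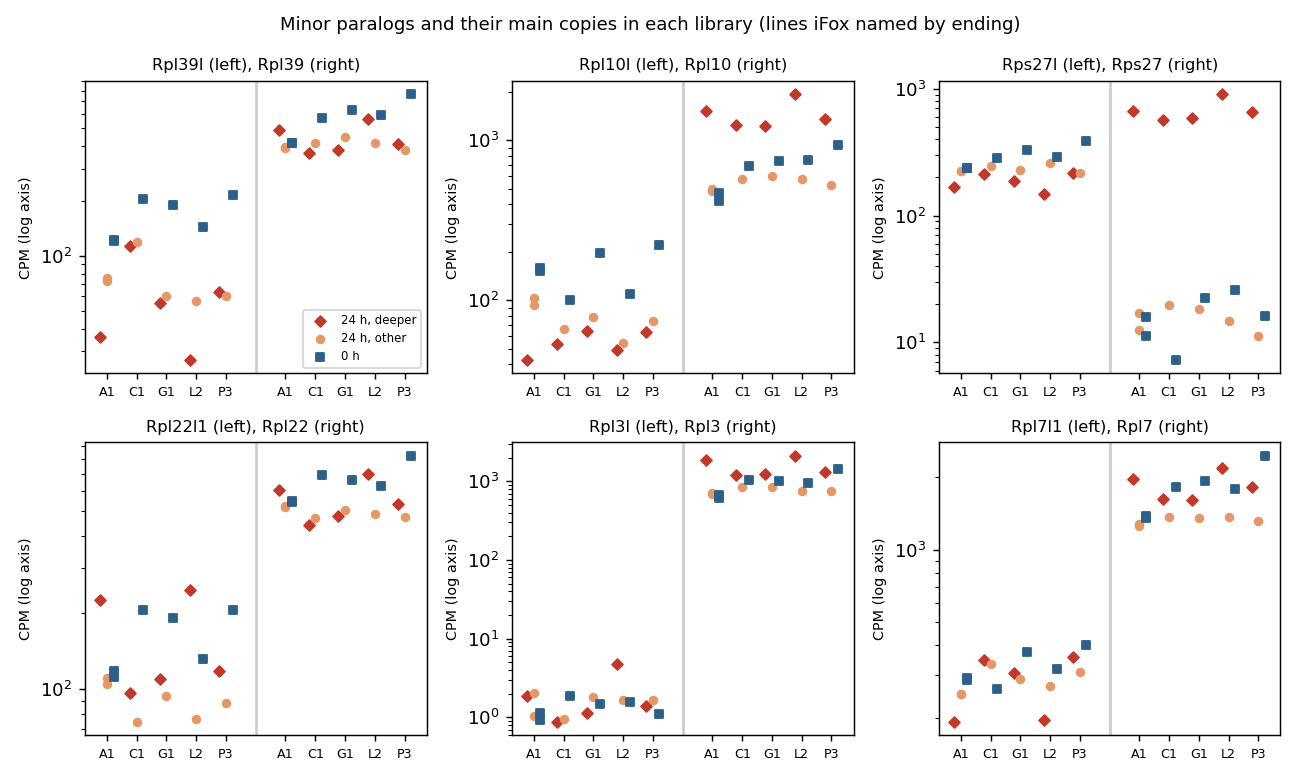
CPM of each minor paralog (left side of a panel) and its main copy (right side) in every library, on a log axis, by line (A1 stands for iFoxA1 and so on). All 24 h values of Rpl39l (26.9 to 119 CPM) lie below its lowest 0 h value of 121 CPM, and Rps27 reaches 565 to 904 CPM in the deeper libraries and at most 25.8 CPM elsewhere.

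The stalk genes did not move as 1 group. Rplp1 was at 1521 to 2004 CPM at 24 h, against 1637 to 3002 CPM at 0 h, and its log2 change was -0.43 ± 0.06 (SE; adjusted p = 0.000705 by edgeR). Rplp0, which anchors the stalk, was at 1370 to 1753 CPM at 24 h and 1334 to 2372 CPM at 0 h, with a log2 change of -0.19 ± 0.06. Rplp2, with which Rplp1 pairs, was at 717 to 1078 CPM at 24 h (median 857) and 735 to 907 CPM at 0 h (median 760). Its log2 change was 0.10 ± 0.07 over all libraries (adjusted p = 0.305) and 0.10 ± 0.02 without the deeper ones (adjusted p = 0.0063, edgeR). Rpsa, the small subunit protein also known as the laminin receptor, was at 2600 to 4141 CPM in the deeper and 1791 to 1992 CPM in the other 24 h libraries, against 1606 to 2965 CPM at 0 h. Without the deeper libraries its log2 change was -0.26 ± 0.02, and over all libraries 0.12 ± 0.22. Rpsa is also a gene with 18 near-identical copies.

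Genes around the ribosome were counted by the same test over all libraries. Of 78 mitochondrial ribosomal protein genes, 35 fell and 4 rose, with a median log2 change of -0.21. Mrpl35 (-0.71) and Mrps9 (-0.68) had the smallest adjusted p. Of 28 ribosome biogenesis genes 9 fell and 3 rose, with Wdr12 of the PeBoW complex at -0.40 and Nip7 at -0.69 among those that fell, and of 11 genes of RNA polymerase I 4 fell and 2 rose, the large subunit gene Polr1a rising by 0.40. Of 16 translation factors and other genes known for TOP mRNAs, 3 fell and 2 rose: Npm1 (-0.48), Eif3e (-0.48) and the non-coding host gene Gas5 (-0.63) fell, and Eef1g rose (0.42). Of 15 regulators of TOP mRNAs and mTORC1, 5 rose and 2 fell. Larp1, which binds the TOP tract, rose by 0.94 ± 0.13 and Rptor by 0.44 ± 0.06, while Eif4ebp1 fell by 0.37 on the log2 scale. Of 16 p53 targets 6 rose and 2 fell, with Pmaip1 at 1.502 and Sesn1 at -0.69. Of 11 tested genes of ribosome quality control and protein import, 5 fell and 1 rose, the ribosome rescue factor Pelo (0.85). The background for these counts is the 16.1% lower and 21.7% higher of all genes given above. Without the deeper libraries, where the background is 31.4% lower and 31.8% higher, 59 mitochondrial ribosomal protein genes fell and 7 rose. In that fit, 14 biogenesis genes fell and 11 rose, 6 genes of RNA polymerase I fell and 3 rose, and 11 translation factors and other TOP genes fell and 4 rose. Of the TOP and mTORC1 regulators 3 fell and 7 rose, of the p53 targets 2 fell and 12 rose, and of the quality control and import genes 7 fell and 4 rose. Among ribosomal proteins that the symbol rule misses, Rpl36al fell (-0.75 ± 0.16), and Fau (-0.08) and Rack1 (-0.17) did not pass the threshold. Without the deeper libraries these 3 fell, with log2 changes of -0.53 (Rpl36al), -0.36 (Rack1) and -0.24 (Fau).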

How the data were processed

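Poly(A) RNA was sequenced with a stranded kit, per the labels' protocols. The authors deposited 2 tables for the whole series, 1 of estimated counts and 1 of TPM values (corrected for transcript length and scaled to a common total per library), each with transcripts as rows and a column per library. The submitters' processing notes name Salmon 1.4.0, DESeq2 1.30.1 and the mm10 build; no source used here gives the annotation. Of 137271 transcripts, 137225 were matched to GENCODE M21 by identifier and summed per gene. Counts were rounded to whole numbers, filtered with filterByExpr, scaled by TMM and tested with edgeR 4.0.16 (R 4.3.3, quasi-likelihood test, Benjamini-Hochberg threshold 0.05) over 10 groups of line and time, with 7 residual degrees of freedom. The average change weights the 5 lines equally. CPM are counts scaled by the TMM-adjusted library size. The deeper libraries, with totals above 25 M, were also left out, or set against the others at 24 h in a fit with line terms. Copies were found with blastn 2.17.0. Alternatives were DESeq2 1.42.0, limma 3.58.1 on log2(TPM + 1), other scalings and filters, summed copies, and leaving out each library. The edgeR steps were tested on simulated data. Members and gene lists were chosen with earlier results of these data known. Named members are at most 10 called members per direction with the largest average change, the minor paralogs with their main copies, line-specific ones past the threshold, the 5 highest and 5 lowest by mean TPM, the 4 with the smallest adjusted p in each direction between the deeper and other 24 h libraries, the stalk genes, Rpsa, and genes with shifted transcript shares; of each list, up to 4 genes with the smallest adjusted p. Rps2, Rps13 and the other called members named were chosen after their values were seen. A few genes are not reported by name here.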

Additional observations from a re-analysis of the deposited data

Results flagged for a closer look

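Signals outside the 83 genes were read in copies that the symbol rule leaves out. Rps27rt averaged 0 CPM in the 5 deeper libraries and 410 CPM in the 6 other 24 h libraries. Rps12-ps3 averaged 0 CPM in the deeper and 1735 CPM in the other 24 h libraries. Rps23-ps1 averaged 95.4 CPM in the deeper and 870.9 CPM in the other 24 h libraries. Of the 54 members with several protein-coding transcripts, 32 had another leading transcript by TPM in the deeper than in the other 24 h libraries. The share was lower among genes at large: 20.1% of the 8287 such genes at or above 1 TPM, and 25.9% of the 912 at or above 100 TPM. The cause was not tested.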

How the results depend on the processing

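The members' median log2 change (-0.18) stayed between -0.27 and -0.09 when each library was left out in turn. The 25 members falling on average became 15 with no filter on low counts, 6 with limma on TPM, 67 with a term for the deeper set, 78 without the deeper libraries, 40 with copies summed, 71 with copies and the term and 79 with copies and without the deeper libraries. Leaving out 1 library gave 11 (the 0 h library of iFoxP3) to 40 (the second 24 h library of iFoxL2). The 0 rising became 2 with no filter, with DESeq2 and with limma, and 1 without the deeper libraries, with or without copies. iFoxA1 libraries share only a number (correlation 0.036 over 2 pairs), and a replicate block gave 38 falling on average and 1, 1, 4, 3 and 27 falling in iFoxA1, iFoxC1, iFoxG1, iFoxL2 and iFoxP3.

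Falling in iFoxA1 (0) became 1 with no filter, 2 with DESeq2, with the term and with copies and term, 14 without the deeper libraries and 17 with copies besides, and 0 to 1 leaving out 1 library. Its rising members (0) became 14 and 8 in the last pair of settings. In iFoxC1 (0) the count became 4 with totals alone, 1 with a 1 CPM filter, 7 with DESeq2, 8 with the term, 66 without the deeper libraries, 1 with copies, 10 with copies and term and 65 with copies and without the deeper libraries, and 0 to 7 leaving out 1 library; rising became 3 and 2. In iFoxG1 (1) it became 2 with size factors, without ribosomal proteins in the scaling and with no filter, 0 with totals alone and limma, 3 with a 1 CPM filter, 12 with DESeq2, 30 with the term, 76 without the deeper libraries, 4 with copies, 31 with copies and term and 78 with copies and without the deeper libraries, and 0 to 10 leaving out 1 library. In iFoxL2 (0) it became 1 with size factors, totals, no filter and a 1 CPM filter, 3 with DESeq2 and with the term, 73 without the deeper libraries, 2 with copies and term and 76 with copies and without the deeper libraries, and 0 to 4 leaving out 1 library; rising became 1 in both. In iFoxP3 (13) it became 3 with no filter, 20 with a 1 CPM filter, 28 with DESeq2, 0 with limma, 63 with the term, 79 without the deeper libraries, 26 with copies, 66 with copies and term and 81 with copies and without the deeper libraries, and 0 to 27 leaving out 1 library. Members differing among lines (0) became 11 with DESeq2, 1 with the term and 80 without the deeper libraries, with or without copies, and 0 to 3 leaving out 1 library. Members higher in the deeper libraries (48) became 27 with copies, and 35 to 45 leaving out 1 library. Those lower (3) became 1 with no filter and 16 with limma, and 0 to 2 leaving out 1 library.

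Directions turned in some named members. With the term, without the deeper libraries, with copies and term, and with copies and without the deeper libraries, Rpl10 was at -0.34, -0.33, -0.42 and -0.42, Rpl12 at -0.24, -0.24, -0.43 and -0.44, and Rpl5 at -0.42, -0.42, -0.47 and -0.46 (-0.39 with copies alone). Rpl3 was at -0.34 without the deeper libraries, and at -0.45 and -0.44 in the last pair of settings; Rps12 at -0.23, -0.41 and -0.41 (-0.49 with copies alone). Rps27 was at -0.39 in that pair. Rpsa was at -0.26 with the term and without the deeper libraries, and at -0.25 with copies and without them. With limma on TPM, Rpl13a was at 0.10, Rpl41 at 0.13 and Rplp0 at 0.13. The cause was not tested.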
